A study of Mus musculus with 6 samples.

Results

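Genes of the class I antigen presentation pathway were followed through RNA-seq libraries of the mouse lateral amygdala. The 10 genes were taken by symbol from 50383 gene IDs. They are the inducible catalytic subunits of the proteasome (Psmb8, Psmb9 and Psmb10), the subunits of the proteasome activator PA28 (Psme1 and Psme2), the peptide transporter (Tap1 and Tap2), the loading factor tapasin (Tapbp), the light chain of class I molecules (B2m) and their transcriptional activator Nlrc5. The set was chosen by the FPKM values of all 3 groups of these libraries, which were in view when it was put together, so its genes are described here and not tested. Where calls and intervals of the fit across all genes are given for them, they describe that fit and support nothing. All 10 were found in every table. The study asked about BAF53b, a neuronal subunit of the BAF chromatin remodelling complex encoded by Actl6b, in the lateral amygdala, a region needed for fear memory. There were 6 libraries in 3 groups of 2: Baf53b siRNA (a short RNA that targets Actl6b messages, given by injection 1 day after training), scrambled siRNA (the same kind of RNA with a shuffled sequence) and control. The labels give training and injection for Baf53b siRNA only. All groups were male mice of a 129xC57BL/6 hybrid strain aged 2 to 3 months. The labels mention tissue of 4 mice without saying how mice were divided over libraries, so the replicates may be technical. Bulk tissue was used, and more cells of a type cannot be told apart from more RNA per cell.

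Proteasomes cut cytosolic proteins into peptides. In cells exposed to interferons, Psmb8, Psmb9 and Psmb10 take the places of the constitutive subunits Psmb5, Psmb6 and Psmb7 in newly made cores, which gives the immunoproteasome and shifts the ends of the peptides toward those that class I molecules hold well. Tap1 and Tap2 carry the peptides into the endoplasmic reticulum, tapasin holds the empty class I molecule beside the transporter, and B2m is the chain that every classical class I molecule shares. In the healthy brain this pathway is expressed at a low level in most neurons and more readily in microglia and vessels, and class I molecules have been studied there for roles at synapses as well as in immunity.

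Several of the 10 genes lie close together. On mm10, Psmb9 (chromosome 17, 34181988 to 34187764, minus strand), Tap1 (34187553 to 34197225, plus strand), Psmb8 (34197721 to 34201454, plus strand) and Tap2 (34203527 to 34216321, plus strand) fill 34334 bp inside the major histocompatibility complex, and Tapbp (33915899 to 33929288, plus strand) lies on the same chromosome. Psme1 and Psme2 are neighbours on chromosome 14, 5911 bp apart, B2m is on chromosome 2, and Psmb10 and Nlrc5 are on chromosome 8. Psmb9 and Tap1 are read away from each other, with 225 bases between their RefSeq start sites, and their annotated genes overlap by 212 bp on opposite strands. The library kit kept the strand, but whether the authors counted by strand is not given in the sources used here, so reads in that overlap may be shared.

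Sequences are shown for the members in which a searched motif falls close to the start, with the motif in capitals. They are stretches of RefSeq promoter windows, which span 300 bases (250 before and 50 after the start site, GRCm38.p6) and were found for 8 of the 10 genes. All are printed on the plus strand, 5′ to 3′. In B2m (chr2:122147437-122147686) the capitals mark several motifs from left to right. First stands an interferon-stimulated response element, and 3 bases after it an NF-kappaB motif read on the minus strand. A CRE core follows and, 20 bases further, an NF-Y box, also on the minus strand. The last pair stands in the part where X and Y boxes of class I genes, the elements that Nlrc5 and its partners occupy, are known to lie. Between Psmb9 and Tap1, 30 bases beside the Psmb9 start (chr17:34187331-34187360) carry an NF-Y box and 30 bases nearer to Tap1 (chr17:34187460-34187489) a CRE core. The 30 bases of Psmb8 (chr17:34198088-34198117) carry a GAS element, a short palindrome known from interferon-responsive promoters, and those of Psme1 (chr14:55578493-55578522) an interferon-stimulated response element read on the minus strand, just after the start site. The stretches of Psmb8 and Psme1 lie inside the annotated genes, which begin at 34197721 and 55578123. Those between Psmb9 and Tap1 lie inside annotated Psmb9, which reaches 34187764. RefSeq and annotated starts thus differ there.
B2m: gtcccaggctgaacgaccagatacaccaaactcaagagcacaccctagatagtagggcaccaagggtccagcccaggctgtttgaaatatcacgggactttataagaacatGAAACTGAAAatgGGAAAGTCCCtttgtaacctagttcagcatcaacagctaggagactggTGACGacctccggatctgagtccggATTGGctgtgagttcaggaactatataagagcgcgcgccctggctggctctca
Psmb9 end: tttCCAATcagcggctgcgcgcggtgcagg
Tap1 end: cagagacaggTGACGacagagggtcctgcc
Psmb8: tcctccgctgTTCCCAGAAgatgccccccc
Psme1: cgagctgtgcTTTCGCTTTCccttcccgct

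The motifs were searched on both strands. The interferon-stimulated response element (GAAANNGAAA) was in 2 of the 8 members' windows (Psme1 and B2m), against 3.44% of 32851 RefSeq promoter windows. The GAS element (TTCNNNGAA) was in 1 (Psmb8), against 8.30%, and the NF-kappaB motif in 1 (B2m), against 8.46%. The NF-Y box (CCAAT) was in 4 (Psmb9, Tap1, Tapbp and B2m), against 37.4%, and the CRE core (TGACG) in 4 (Psmb9, Psme2, Tap1 and B2m), against 20.8%. Psmb9 and Tap1 share theirs, because their windows overlap. The same search found the CRE core before the start of the constitutive genes Psmb6 (from positions -58 and -9) and Psmb5 (from -47). A match is a run of letters and not a measured binding site.

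The libraries had an estimated 7.65 and 8.51 M fragments in Baf53b siRNA and 8.92 and 10.3 M in control. The scrambled siRNA libraries were further apart, at 6.42 and 10.7 M. The siRNA target was not detectably lower: Actl6b had 42.8 and 39.6 FPKM (fragments per kilobase of transcript and per M fragments) in Baf53b siRNA, 43.8 and 43.9 in scrambled siRNA and 42.9 and 44.1 in control. Its log2 difference was -0.09 against scrambled siRNA and -0.08 against control, with an adjusted p of 1 in both by limma, so the groups are named here as the labels name them and the knockdown is not seen in this RNA. A list of 6 genes used as markers of the amygdala had sums of 500.5 to 622 FPKM in Baf53b siRNA, 563 to 642 in scrambled siRNA and 543 to 609.6 in control. Its median log2 difference was -0.22 against scrambled siRNA, where all 6 were below 0, and -0.13 against control, with 0 called by limma in either. A list of 8 markers of neighbouring regions summed to 47.9 to 49.3 FPKM in Baf53b siRNA, 40.6 to 48.5 in scrambled siRNA and 40.6 to 44.1 in control. Of its 6 tested genes 0 were called against scrambled siRNA and 1 against control (Prkcd, a marker of the central amygdala, by 1.17, limma adjusted p = 0.048). The median log2 difference of this list was 0.070 against scrambled siRNA and 0.069 against control. In each comparison 4 of the 6 were above 0, so Prkcd does not stand for the list.

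The 10 genes fell into 2 sets by how far the labelled groups stood apart. The means of Psmb8, Psmb9, Tap1, Tap2 and B2m in the libraries labelled Baf53b siRNA were 2.88-fold to 4.81-fold those in scrambled siRNA, and Nlrc5 was near 0 outside the Baf53b siRNA libraries. For Psmb10, Psme1, Psme2 and Tapbp no mean of a group was more than 1.53-fold that of another. Between scrambled siRNA and control, Psmb8, Psmb9, Tap1 and B2m had means 1.94-fold to 2.77-fold those of control in scrambled siRNA. The means of the other members in the fit were within 1.16-fold.

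**Figure D1:**
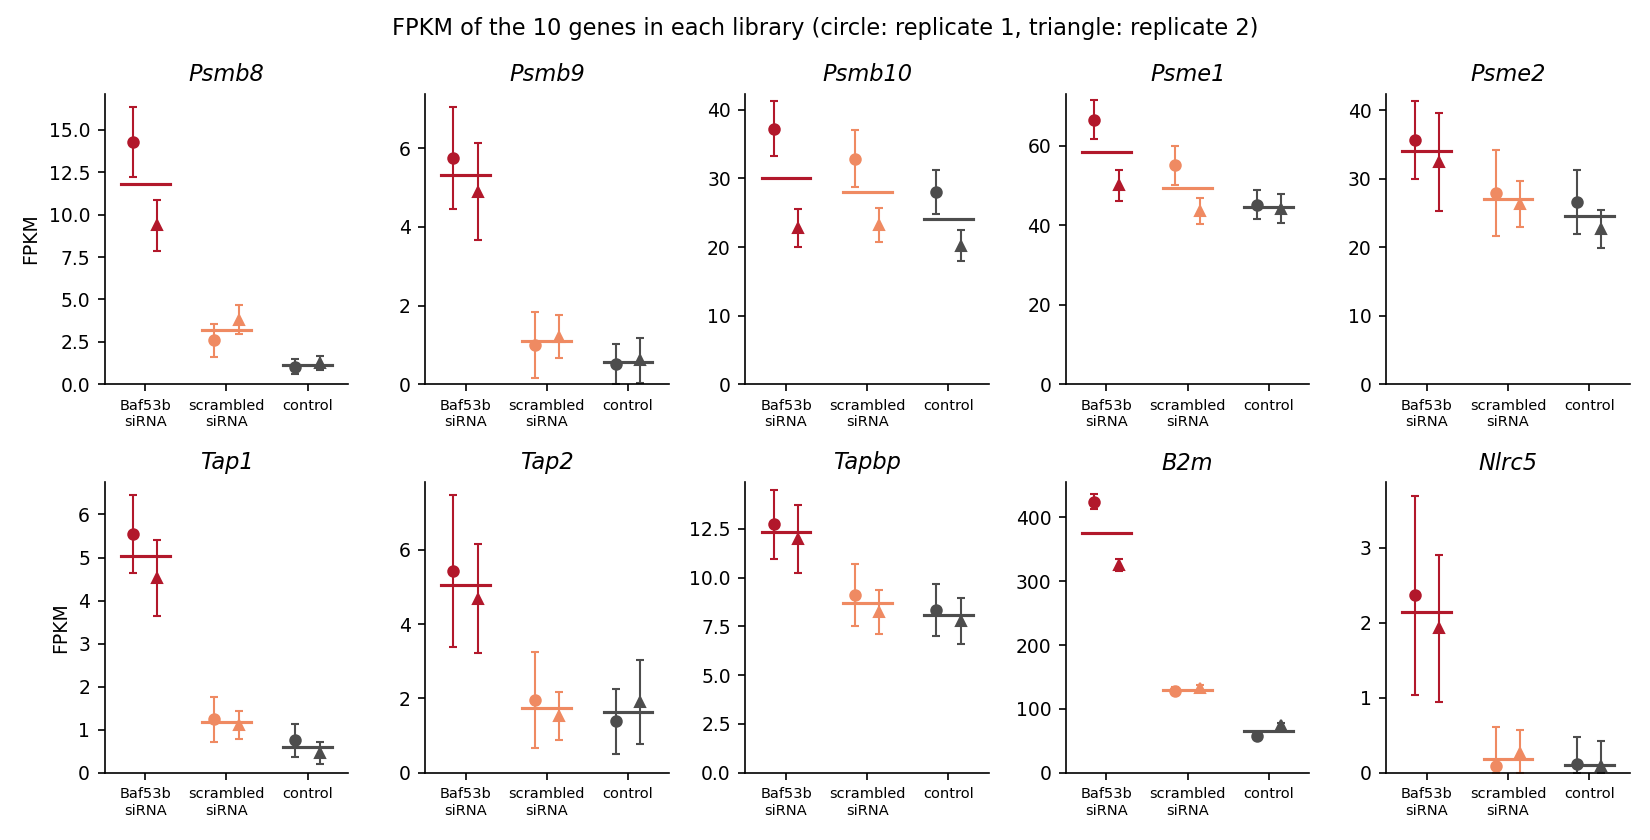
FPKM (vertical axes, each from 0) of the 10 genes in each library. Circles are replicate 1, triangles replicate 2, horizontal lines group means, and vertical bars the authors' deposited confidence intervals. The 2 Baf53b siRNA libraries lie above the other 4 for every gene but Psmb10 and Psme1.

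Psmb8, the chymotrypsin-like inducible subunit, had 14.3 and 9.38 FPKM in Baf53b siRNA, 2.59 and 3.81 in scrambled siRNA and 1.05 and 1.26 in control. No group overlapped with another, and the Baf53b siRNA libraries differed from each other by more than the whole level in control. The mean was 11.8 ± 3.47 FPKM in Baf53b siRNA, 3.20 ± 0.860 in scrambled siRNA and 1.15 ± 0.154 in control (SD, n = 2 each), which is 3.69-fold over scrambled siRNA and 10.2-fold over control. As a difference in log2(FPKM + 1), which understates the change of low genes, this was 1.60 (SE 0.24) against scrambled siRNA, 2.55 against control and 0.95 for scrambled siRNA against control.

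Psmb9, the subunit that replaces the caspase-like Psmb6, had 5.74 and 4.90 FPKM in Baf53b siRNA, 1.00 and 1.21 in scrambled siRNA and 0.508 and 0.606 in control. The Baf53b siRNA libraries stood well clear of the other 4, and scrambled siRNA lay above control with deposited intervals that overlapped. Its mean was 4.81-fold that of scrambled siRNA and 9.56-fold that of control, with log2 differences of 1.58 (SE 0.17) and 2.02. The control level rests on few fragments, an estimated 4.06 to 4.44 per library, and the fold against control is accordingly rough.

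Psmb10, which replaces the trypsin-like Psmb7, had 37.3 and 22.8 FPKM in Baf53b siRNA, 32.9 and 23.2 in scrambled siRNA and 28.0 and 20.2 in control. In each group replicate 1 was 1.38 to 1.64 times replicate 2, and the groups overlapped in every comparison. The log2 difference of 0.07 (SE 0.28) against scrambled siRNA turned to -0.27 without Baf53b siRNA replicate 1 and to -0.17 without scrambled siRNA replicate 2. That against control, 0.28, turned to -0.06 without Baf53b siRNA replicate 1. The inducible subunits therefore did not differ alike between the libraries.

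Set against the constitutive subunit it replaces, each inducible gene kept this pattern. FPKM is per length, so the shares of a pair can be read as shares of transcripts. Psmb8 made up 17.1% and 17.2% of Psmb8 plus Psmb5 in Baf53b siRNA, 3.85% and 7.17% in scrambled siRNA and 1.66% and 2.68% in control. Psmb9 made up 4.31% and 5.003% of Psmb9 plus Psmb6 in Baf53b siRNA, 0.754% and 1.19% in scrambled siRNA and 0.473% and 0.593% in control. For both pairs the 3 groups were in the same order with no overlap, and the constitutive gene was the larger part in every library.

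The Psmb10 share of Psmb10 plus Psmb7 was 25.2% and 18.3% in Baf53b siRNA, 22.6% and 17.9% in scrambled siRNA and 22.3% and 15.0% in control. It was the largest of the inducible shares in all 6 libraries and the groups overlapped. The log2 ratio of inducible to constitutive gene differed by 1.90 for Psmb8 over Psmb5, 2.35 for Psmb9 over Psmb6 and 0.12 for Psmb10 over Psmb7 between Baf53b siRNA and scrambled siRNA. Against control these differences were 3.27, 3.19 and 0.29. The constitutive genes themselves differed little: Psmb5, Psmb6 and Psmb7 had log2 differences of -0.02, -0.08 and -0.05 against scrambled siRNA, with an adjusted p of 1 by limma for each.

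**Figure D2:**
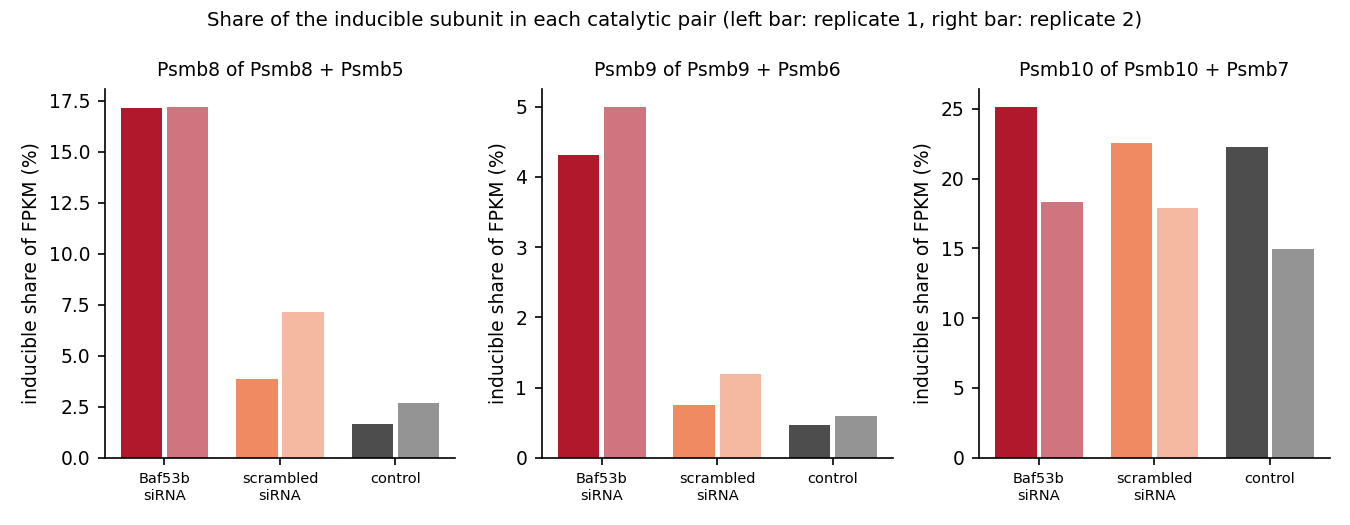
Share of the inducible gene in the summed FPKM of each catalytic pair (vertical axes, in percent from 0), 1 bar per library, with replicate 1 on the left of each group. The Psmb8 and Psmb9 shares are highest in both Baf53b siRNA libraries, at 17.1% and 17.2% and at 4.31% and 5.003%, while the Psmb10 share follows the replicate number more than the group.

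Psme1 and Psme2 encode the alpha and beta subunits of PA28, a ring that opens the end of the proteasome core. Psme1 had 66.6 and 50.1 FPKM in Baf53b siRNA, 55.1 and 43.5 in scrambled siRNA and 45.2 and 44.3 in control. Both Baf53b siRNA libraries were above control, while they overlapped with scrambled siRNA, and the log2 differences were 0.23 (SE 0.18) and, against control, 0.36. Psme2 had 35.6 and 32.4 FPKM in Baf53b siRNA, 27.9 and 26.2 in scrambled siRNA and 26.6 and 22.7 in control. Here the Baf53b siRNA libraries were above the other 4, by 0.32 (SE 0.14) against scrambled siRNA and 0.46 against control on the log2 scale, although the deposited intervals of the groups overlapped. Reads may be split between Psme2 and its near copy Psme2b, which had 1.91 and 1.45 FPKM in Baf53b siRNA, 0.628 and 0.692 in scrambled siRNA and 1.09 and 0.535 in control.

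Tap1 and Tap2 form the transporter together. Tap1 had 5.54 and 4.52 FPKM in Baf53b siRNA, 1.24 and 1.10 in scrambled siRNA and 0.751 and 0.458 in control. No group overlapped with another, and the mean in Baf53b siRNA was 4.29-fold that in scrambled siRNA and 8.33-fold that in control. Tap2 had 5.44 and 4.69 FPKM in Baf53b siRNA, 1.97 and 1.53 in scrambled siRNA and 1.38 and 1.90 in control. Its Baf53b siRNA libraries were above the other 4, at 2.89-fold the mean of scrambled siRNA and 3.09-fold that of control, while scrambled siRNA and control overlapped. On the log2 scale Tap1 differed by 1.47 (SE 0.18) and Tap2 by 1.14 (SE 0.18) against scrambled siRNA, and by 1.91 and 1.20 against control. Between scrambled siRNA and control, Tap1 differed by 0.44. For Tap2 that difference was 0.06 and turned to -0.01 after quantile normalization.

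The group means of Tap1 and Tap2 were not in the same ratio in the 3 groups. In control the mean of Tap2 was the higher, at 1.64 ± 0.368 FPKM, with Tap1 at 0.604 ± 0.207 (SD, n = 2 each). In scrambled siRNA the means were 1.75 ± 0.309 FPKM for Tap2 and 1.17 ± 0.0955 for Tap1 (SD, n = 2 each). In Baf53b siRNA the 2 genes were level, at 5.06 ± 0.528 FPKM for Tap2 and 5.03 ± 0.720 for Tap1 (SD, n = 2 each). The deposited intervals of the 2 genes overlapped in control replicate 1, at 0.515 to 2.25 FPKM for Tap2 and 0.371 to 1.13 for Tap1. They did not overlap in control replicate 2, at 0.773 to 3.03 and 0.195 to 0.721 FPKM. The ratio in control is accordingly rough. Tap2 rested on an estimated 28.4 to 41.5 fragments per library in Baf53b siRNA and 10.2 to 11.4 in control, fewer than Tap1 had in the same libraries.

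Tapbp, which encodes tapasin, had 12.7 and 11.99 FPKM in Baf53b siRNA, 9.12 and 8.24 in scrambled siRNA and 8.34 and 7.79 in control. The Baf53b siRNA libraries were above the other 4 by 1.43-fold over the mean of scrambled siRNA and 1.53-fold over control, with log2 differences of 0.47 (SE 0.14) and 0.56. Scrambled siRNA and control overlapped.

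B2m was the most abundant of the 10 genes in every library. It had 425 and 326 FPKM in Baf53b siRNA, 128 and 132 in scrambled siRNA and 56.9 and 74.7 in control. The groups did not overlap, and B2m was the only member whose deposited intervals also kept scrambled siRNA apart from control. The mean in Baf53b siRNA was 2.88-fold that in scrambled siRNA and 5.70-fold that in control, and scrambled siRNA was 1.98-fold control. The log2 differences were 1.51 (SE 0.19), 2.49 and 0.99. With an estimated 5472 and 5083 fragments in Baf53b siRNA and 900 and 1439 in control, B2m was also the member measured with the least counting error.

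Nlrc5, the activator of class I genes, was the lowest member. It had 2.37 and 1.92 FPKM in Baf53b siRNA, 0.0928 and 0.266 in scrambled siRNA and 0.115 and 0.0881 in control. The deposited intervals were 1.04 to 3.69 and 0.949 to 2.90 FPKM in Baf53b siRNA, while in scrambled siRNA and control all 4 began at 0 and ended at no more than 0.607 FPKM. In those 4 libraries Nlrc5 was at an estimated 0.1303 to 3.03 fragments, against 12.7 and 15.6 in Baf53b siRNA, so no fold is given. Its mean of 0.809 FPKM over all libraries was below the minimum of 1 set for the fit.

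**Figure D3:**
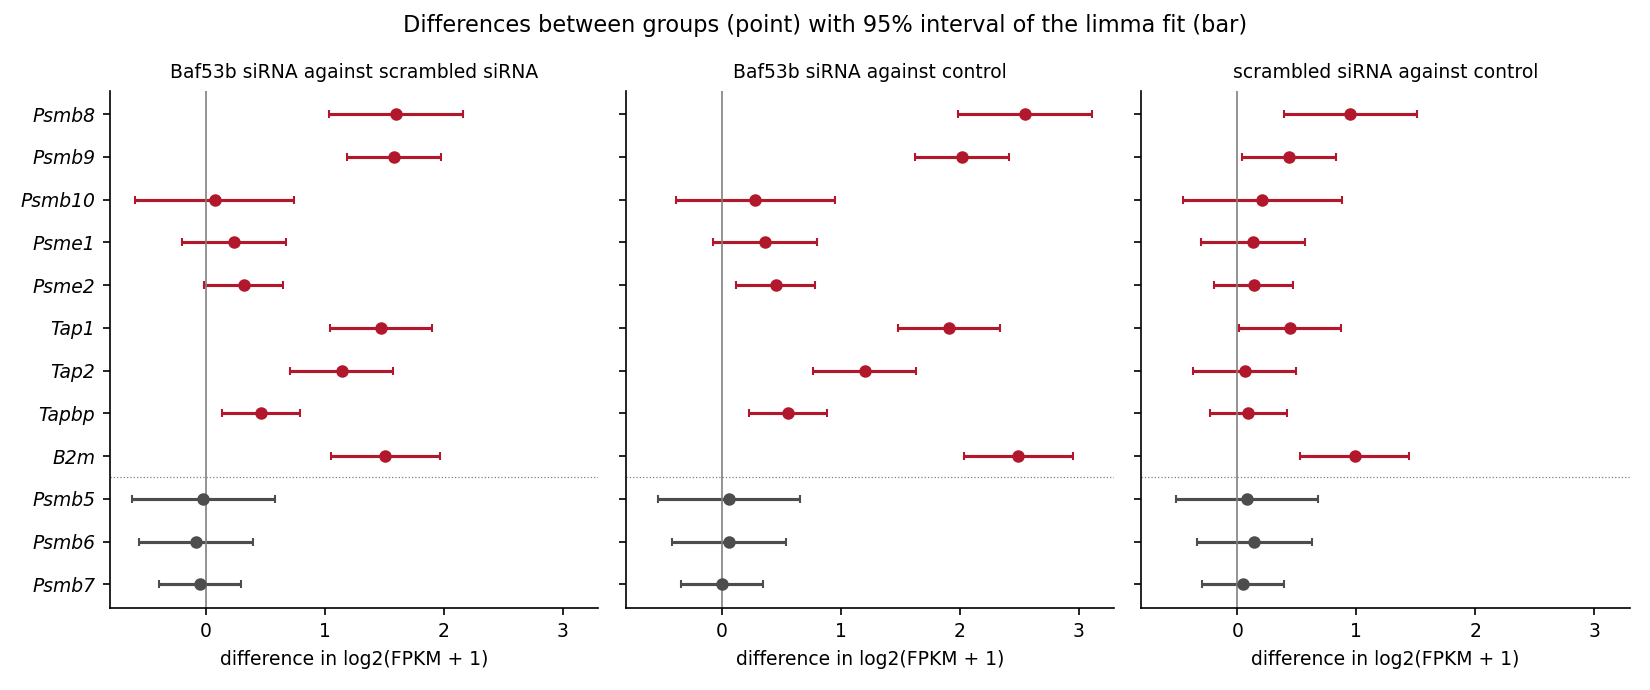
Differences in log2(FPKM + 1) between groups (horizontal axes) for the 9 members that entered the fit (above the dotted line) and the constitutive subunits Psmb5, Psmb6 and Psmb7 (below it). Points are limma estimates and bars their 95% intervals. Psmb8, Psmb9, Tap1, Tap2 and B2m lie between 1.14 and 1.60 against scrambled siRNA, and the constitutive subunits lie near 0 in all 3 comparisons.

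The fit across all genes kept those with a mean of at least 1 FPKM and tested 14663. Of the 10 members 9 entered it. Psmb9 and Tap1 entered through the Baf53b siRNA libraries, since their means over the other 4 were 0.832 and 0.888 FPKM, so counts over the 9 are given for completeness and not as support. In Baf53b siRNA against scrambled siRNA, 1 of the 9 (Psmb9) had a limma adjusted p under 0.05, where 0.123% of all genes were called higher and 0% lower. That call was lost without each of the 6 libraries in turn. In Baf53b siRNA against control, 5 of the 9 (Psmb8, Psmb9, Tap1, Tap2 and B2m) were called, where 1.23% of all genes were called higher, and without Baf53b siRNA replicate 1 only Psmb8, Psmb9 and B2m were. The call of Tap2 was lost without each of the 6 libraries in turn. In scrambled siRNA against control 0 of the 9 were called, as were 0% of all genes by limma, with 325 genes at an unadjusted p under 0.05.

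Counted over all 10 members without the minimum, both Baf53b siRNA libraries were above both scrambled siRNA libraries for 8 (all but Psmb10 and Psme1), where 13.1% of the genes tested were so. They were above both control libraries for 9 (all but Psmb10), where 16.7% were so. Both scrambled siRNA libraries were above both control libraries for 4 (Psmb8, Psmb9, Tap1 and B2m), where 12.7% were so. The median log2 difference of the 10 was 1.28 against scrambled siRNA, 1.36 against control and 0.17 for scrambled siRNA against control, beside 0.0026, 0.038 and 0.041 for all genes tested. The comparisons share libraries, and their values are therefore not independent.

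The deposited interval is read here as the counting uncertainty within a library, without the spread between libraries. For Psmb8 those of the 2 Baf53b siRNA libraries, 12.2 to 16.4 and 7.88 to 10.9 FPKM, did not overlap each other. By this interval, the Baf53b siRNA libraries stood clear of scrambled siRNA for 5 of the 10 members (Psmb8, Psmb9, Tap1, B2m and Nlrc5) and clear of control for 7 (these and Tap2 and Tapbp). The share of all genes with intervals apart was not computed, so these counts only describe the members. The order of levels also differed between groups. In control it was B2m, Psme1, Psme2, Psmb10, Tapbp, Tap2, Psmb8, Tap1, Psmb9 and Nlrc5, and the libraries overlapped for the neighbours Psme2 and Psmb10 and for Tap1 and Psmb9. In Baf53b siRNA Psmb8 stood before Psmb9, Tap2 and Tap1, with a range that overlapped that of Tapbp, and Psmb9, Tap2 and Tap1 overlapped in turn.

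The members did not move alike over the single libraries. Baf53b siRNA replicate 1 was the higher of its pair for all 10 genes, by 1.52-fold for Psmb8 and 1.30-fold for B2m and by 1.06-fold for Tapbp. In control replicate 1 was the lower for Psmb8, Psmb9, Tap2 and B2m. Mitochondrial genes made up 19.3% and 22.8% of FPKM in Baf53b siRNA, 15.0% and 26.9% in scrambled siRNA and 19.4% and 29.5% in control. That share was higher in replicate 2 of each group, and its part in the replicate differences was not tested. As a description over 6 libraries, which differ in group, the correlation of each gene's log2(FPKM + 1) with the mean standardised level of the 10 was 0.57 for Psmb10, 0.86 for Psme1 and between 0.95 and 0.99 for the other 8. Each gene is itself part of that mean, and the set was chosen by these values, so high correlations were built in. The tested genes most like that mean outside the set were Ucp2 (a mitochondrial uncoupling protein, r = 0.996), H2-T23 and H2-Q7 (class Ib heavy chains, both r = 0.995), Uba7 (the activating enzyme for ISG15, r = 0.994) and Irf7 (an interferon regulatory factor, r = 0.994). Of these, H2-Q7, Uba7 and Irf7 reached the minimum of 1 FPKM only through the Baf53b siRNA libraries. All were picked by this correlation from the genes tested, so their likeness is a description and supports nothing. Ucp2 had 42.5 and 30.1 FPKM in Baf53b siRNA, 19.5 and 16.1 in scrambled siRNA and 13.2 and 13.6 in control.

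The other genes of the pathway were read from 10 lists that held 83 tested genes besides the members. Of these 1 was called higher in Baf53b siRNA against scrambled siRNA and 8 against control (2 of which, H2-Q6 and H2-Q7, entered only through the Baf53b siRNA libraries), and 0 were called lower in either. No gene in the remainder of the proteasome was called. None of the 11 other tested genes of the 20S core passed the test in either comparison, with differences between -0.10 and 0.04 against scrambled siRNA, nor did any of 18 genes of the 19S cap, which lay between -0.13 and 0.14. Psma5 and Psmb1 of the core differed by -0.10 and -0.06, and Psmc4 and Psmd13 of the cap by 0.14 and -0.13, each with an adjusted p of 1 by limma. Of 8 assembly factors and other activators 0 passed. Psme3, the PA28 gamma subunit of the nucleus, differed by 0.07 and Psme4, the activator PA200, by 0.10.

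Of 6 other loading factors of the endoplasmic reticulum 0 passed. Erap1, which trims peptides to fit class I molecules, had 4.06 and 3.33 FPKM in Baf53b siRNA, 2.54 and 2.27 in scrambled siRNA and 2.09 and 2.83 in control, a log2 difference of 0.46 (SE 0.18) with a limma adjusted p of 1 against scrambled siRNA. Tapbpl, the tapasin relative TAPBPR that edits peptides, differed by 0.19. Of 7 peptidases 0 passed, and Blmh and Nrd1 differed by -0.15 and 0.17. The list median against scrambled siRNA was 0.05 for the loading factors and 0.04 for the peptidases, beside 0.0026 for all genes.

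The class I heavy chains pair with B2m. Of 8 tested genes 1 (H2-D1) was called higher against scrambled siRNA and 6 against control, with list medians of 2.04 and 2.87. H2-Q6, H2-Q7 and H2-M3 reached the minimum of 1 FPKM only through the Baf53b siRNA libraries, and H2-Q6 and H2-Q7 are among the 6, so these counts and medians are given for completeness. H2-D1 had 104 and 73.9 FPKM in Baf53b siRNA, 21.0 and 19.4 in scrambled siRNA and 7.48 and 6.43 in control, with limma adjusted p-values of 0.030 and 0.0014. Against control H2-K1 and H2-Q4 were higher by 3.27 and 2.93 on the log2 scale, with adjusted p-values of 0.0046 and 0.0060 by limma. H2-Q7 had 13.9 and 6.40 FPKM in Baf53b siRNA, 0.957 and 0.680 in scrambled siRNA and 0.111 and 0.0560 in control. These genes are near copies of each other, and the authors' counting may have split or shared their reads. The call of H2-D1 against scrambled siRNA was lost without control replicate 1, without either scrambled siRNA library and without Baf53b siRNA replicate 1. Of the other partners of B2m, Mr1 and Hfe differed by 0.45 and 0.24 and did not pass the test.

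**Figure D4:**
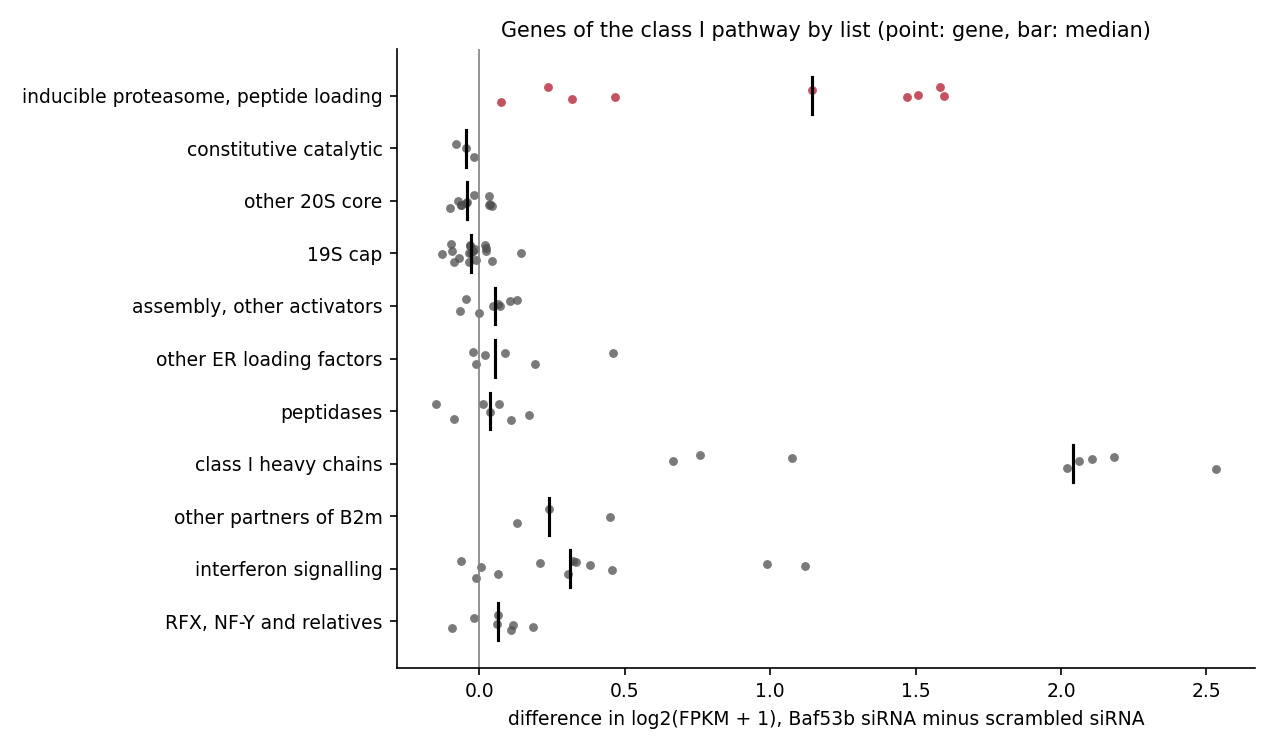
Difference in log2(FPKM + 1) of Baf53b siRNA minus scrambled siRNA (horizontal axis) for each tested gene of the pathway, by list. Points are genes and vertical bars list medians; the top row holds the 9 members in the fit. The 20S core and 19S cap lie between -0.13 and 0.14, and the class I heavy chains have a median of 2.04.

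Of 12 tested genes of interferon signalling, 0 were called against scrambled siRNA and 2 were called higher against control, of which Irf1 is described here. The list median log2 difference was 0.31 against scrambled siRNA and 0.39 against control, with 10 and 11 of the 12 genes above 0. Irf1, an interferon regulatory factor, had 8.80 and 7.69 FPKM in Baf53b siRNA, 3.54 and 3.77 in scrambled siRNA and 3.597 and 3.46 in control. Its differences were 0.99 (limma adjusted p = 0.11) and 1.03 (limma adjusted p = 0.025), and the call against control was lost without each of the 6 libraries in turn. For Irf1 the Baf53b siRNA libraries lay above those of both other groups, while scrambled siRNA and control overlapped.

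Of 7 tested partners and relatives of Nlrc5 at class I promoters 0 passed, and Creb1 and Nfyb differed by 0.18 and 0.12. Ciita, the class II counterpart of Nlrc5, was below the minimum level. It is named after its values were seen, at 0.609 and 0.548 FPKM in Baf53b siRNA, 0.0494 and 0.0612 in scrambled siRNA and 0.0735 and 0.0220 in control.

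Markers of microglia, a cell type known to use the class I pathway, had a higher sum in the same libraries. The summed level of 18 microglia markers was 988 and 804 FPKM in Baf53b siRNA, 587 and 573 in scrambled siRNA and 357 and 346 in control. Of these 18 markers 0 were called against scrambled siRNA by limma and 9 were called higher against control, with a median log2 difference of 0.43 and 0.97. The sum was 1.54-fold that of scrambled siRNA and 2.55-fold that of control. Abundant markers weigh most in it, and the single markers differed unevenly. Their log2 differences ran from -0.18 (Fcrls) to 0.95 (C1qa) against scrambled siRNA and from 0.19 to 2.05 against control. None of these markers was at 0 in any library.

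A list of 18 markers of blood-borne leukocytes summed to 23.7 and 15.4 FPKM in Baf53b siRNA, 12.6 and 10.3 in scrambled siRNA and 5.83 and 6.27 in control. That sum was 1.71-fold that of scrambled siRNA and 3.23-fold that of control. Of the 18 markers 7 were at 0 in each control library and 0 in each Baf53b siRNA library, and 3 were high enough to be tested, of which 0 were called. Of these 3, Trbc2 reached the minimum only through the Baf53b siRNA libraries. In each library 11 to 16 of the 18 were under 1 FPKM. Much of the control sum came from Ly6c2 and Lck, with means of 2.60 and 1.90 FPKM in control. The sum of 10 astrocyte markers was 923 and 951 FPKM in Baf53b siRNA, 794 and 746 in scrambled siRNA and 684 and 745 in control. The list median log2 difference was 0.011 against scrambled siRNA, where 5 of the 10 markers were above 0, and 0.072 against control, where 7 were. The list as a whole thus differed little. Of the 10 markers 1 (Gfap) was called higher against scrambled siRNA and 2 (Gfap and Aqp4) against control. Gfap, the intermediate filament of astrocytes, had 170 and 178 FPKM in Baf53b siRNA, 45.1 and 47.3 in scrambled siRNA and 16.9 and 18.3 in control, with log2 differences of 1.89 (limma adjusted p = 0.011) and 3.23 (limma adjusted p = 0.00055). Aqp4, the water channel of astrocyte endfeet, differed by 0.80 against control (limma adjusted p = 0.044). Endothelial markers summed to 90.6 to 110 FPKM in Baf53b siRNA, 90.9 to 92.6 in scrambled siRNA and 72.3 to 82.7 in control, with 0 of 9 called in either comparison. Neuron markers summed to 2587 to 3050 FPKM in Baf53b siRNA, 2877 to 3101 in scrambled siRNA and 2831 to 2961 in control, with 0 of 9 called in either comparison. Oligodendrocyte markers summed to 980 to 993 FPKM in Baf53b siRNA, 1014 to 1080 in scrambled siRNA and 753 to 948 in control, with 0 of 8 called. The part of these cell types in the values of the 10 genes was not tested.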

How the data were processed

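RNA of the lateral amygdala was sequenced in 6 libraries, from polyadenylated RNA with a stranded kit and paired ends, per the labels' protocols. What the authors deposited is, per the file headers, an FPKM value for each gene and library, with a confidence interval. The submitters' processing notes name TopHat2 2.1.1, Cufflinks 2.2.1, bcl2fastq 2.19.1.403 and the build mm10, and give neither annotation nor settings. FPKM scales by gene length and by library size. Rows of 92 spike-in RNAs were set aside, several rows of 48 gene IDs were summed, 4 genes with a failed estimate were dropped, and 354 small RNA genes were left out. GENCODE M21 matched 50160 of 50383 gene IDs. Fragments were estimated from the interval, whose half-width was taken as 2 standard errors of a count; they cover counting error only.

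Values were taken as log2(FPKM + 1), a pseudocount of 1, for genes with a mean of at least 1 FPKM. The 6 libraries entered a single limma fit of group means (limma 3.58.1, R 4.3.3, moderated with a trend, 3 residual degrees of freedom), two-sided, with Benjamini-Hochberg adjustment over 14663 genes at 0.05. The fit was run on simulated data with independent noise of the fitted variances and added shifts. These data held no effect shared by replicate number, so that run checks the code and not the calls given here. The members and the lists were chosen with earlier results of these data known. Named besides the members were, per list, the called genes (at most 4, by difference against control), filled up to 2 by the smallest p against scrambled siRNA, and the 5 genes most like the members in pattern. Promoters came from RefSeq (GRCm38.p6), and figures from matplotlib 3.10.9. Alternatives were another pseudocount, filters, scalings, small RNA genes kept, only the 2 groups compared, a replicate block, and leaving out each library. The values of 1 gene that this rule names, in the interferon signalling list, are not reported here.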

Additional observations from a re-analysis of the deposited data

Results flagged for a closer look

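Each table held rows for 92 synthetic spike-in RNAs, which the labels do not mention and no comparison used. Their FPKM summed to 4825 in Baf53b siRNA replicate 1 and 811 in Baf53b siRNA replicate 2, 207 and 656 in scrambled siRNA, and 117 and 125 in control, so both Baf53b siRNA libraries were above the control libraries. This was 0.755% and 0.128% of the FPKM sum in Baf53b siRNA, 0.0340% and 0.102% in scrambled siRNA, and 0.0191% and 0.0195% in control. Baf53b siRNA replicate 1 was also the higher of its pair for all 10 genes; the part of the spike-in RNA in the results was not tested.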

How the results depend on the processing

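With 2 libraries a group, calls depended on the settings more than the direction of the large differences did. For Psmb8, Psmb9, Tap1 and B2m no alternative changed the sign in any of the 3 comparisons, nor for Tap2 in either comparison with Baf53b siRNA. Depth limits Nlrc5, and Psmb9 in control. Members called against scrambled siRNA (main 1) were 0 with a pseudocount of 0.1, no filter, a mean of at least 5 FPKM, small RNA genes kept, only the 2 groups compared, the replicate block, and without each library; they were 2 with median-of-ratios scaling (Psmb9 and Tap1) and 3 with quantile normalization (Psmb9, Tap1 and B2m). Against control (main 5) they were 1 without a filter (B2m), 2 at a mean of at least 5 (where 6 members were tested), and 3 to 4 without 1 library. The causes were not tested.

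Genes called against scrambled siRNA (main 18) were 1 with a pseudocount of 0.1, 0 without a filter, 8 at a mean of at least 5, 5 with small RNA genes kept, and 4 to 23 without 1 library. Against control (main 181) they were 42 without a filter, 71 at a mean of at least 5, and 34 to 139 without 1 library. The main counts hold no lower calls, but some of these do: against scrambled siRNA 1 with small RNA genes kept and with only the 2 groups, 1 without either control library or Baf53b siRNA replicate 1, and 5 of 7 and 5 of 9 without scrambled siRNA replicate 1 and replicate 2; against control 1 with a pseudocount of 0.1, 5 with small RNA genes kept, 1 with only the 2 groups, 7 and 4 without control replicate 1 and replicate 2, and 1 without either scrambled siRNA library. For scrambled siRNA against control (main 0) there was 1 with only the 2 groups, and 1 to 7 without 1 library, of which 1 to 6 were lower where a control or scrambled siRNA library was left out. Other pathway genes called against scrambled siRNA (main 1) were 0 with a pseudocount of 0.1, no filter and small RNA genes kept, 4 with median-of-ratios scaling, 3 with quantile normalization, 2 with the replicate block, and 0 to 5 without 1 library; against control (main 8) they were 2 without a filter, 5 at a mean of at least 5, and 5 to 7 without 1 library.

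The members' median log2 difference against scrambled siRNA (main 1.14) was 1.49 with a pseudocount of 0.1, 1.28 without a filter, 0.39 at a mean of at least 5, and 1.03 to 1.26 without 1 library. Against control (main 1.20) it was 1.58, 1.36, 0.51 and 1.06 to 1.35, and 1.08 with quantile normalization. For scrambled siRNA against control (main 0.21) it was 0.093 to 0.39 without 1 library. The log2 ratio of Psmb9 over Psmb6 was 2.79 against control and 0.50 for scrambled siRNA against control with quantile normalization, and without 1 library 2.02 to 2.68 against scrambled siRNA and 0.51 to 1.18 for scrambled siRNA against control.

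Signs turned for small differences. With median-of-ratios scaling and quantile normalization, Actl6b in scrambled siRNA against control was -0.039 and -0.037, and against control Nrd1 was -0.034 and -0.0085 and Psmb7 -0.052 and -0.017; Tap2 in scrambled siRNA against control was -0.0086 with quantile normalization. Without 1 library, differences for scrambled siRNA against control were -0.0092 to 0.032 for Actl6b, -0.081 to 0.20 for Tap2, -0.036 to 0.45 for Psmb10 and -0.037 to 0.30 for Psme1. Against scrambled siRNA they were -0.27 to 0.42 for Psmb10, -0.32 to 0.28 for Psmb5, -0.30 to 0.14 for Psmb6, -0.11 to 0.017 for Psmb7, -0.17 to 0.045 for Psmb1, -0.21 to 0.0040 for Psma5, -0.0038 to 0.29 for Psmc4, -0.31 to 0.049 for Psmd13 and -0.064 to 0.40 for Nrd1. Against control they were -0.062 to 0.63 for Psmb10, -0.24 to 0.36 for Psmb5, -0.16 to 0.29 for Psmb6, -0.12 to 0.12 for Psmb7, -0.12 to 0.097 for Psmb1, -0.11 to 0.10 for Psma5, -0.022 to 0.23 for Psmc4, -0.27 to 0.087 for Psmd13, -0.13 to 0.021 for Psme3, -0.17 to 0.39 for Psme4, -0.17 to 0.092 for Creb1 and -0.22 to 0.25 for Nrd1.

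The labels give replicate numbers 1 and 2 in each group without saying that they mark pairs. Deviations of same-numbered libraries correlated at 0.36 for Baf53b siRNA and scrambled siRNA, 0.18 for Baf53b siRNA and control and 0.39 for scrambled siRNA and control, and with 2 numbers this does not settle whether they pair. With the replicate block 0 members were called against scrambled siRNA and 4 against control (all of the 5 but Tap2).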
